A study of Mus musculus with 6 samples.

Results

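Clec3b, Sprr1a, Mmd2 and Limch1 are 4 of the 17460 gene symbols measured by RNA sequencing in the livers of 6 mice fed a NASH diet for 24 weeks. They were picked by symbol because their values were lower in Blnc1 LKO than in control livers, so their difference between groups is given here as a description, without a test. All 4 had values well above 0 in every liver and passed the filter on low values. The livers came from 3 control and 3 Blnc1 LKO mice of the C57BL/6 strain, 9 months old, and the question of the comparison was how the liver transcriptome differs when Blnc1, a long noncoding RNA, is inactivated in the liver. Per the study's methods, Blnc1 LKO mice were Cas9 transgenic animals given an adenovirus in the tail vein that carried a pair of guide RNAs directed at Blnc1. The virus reaches hepatocytes well and other liver cells poorly, so cells other than hepatocytes can still hold Blnc1 in this model. The vector given to the controls of the NASH diet experiment is not given in the sources used here. The paper also does not state whether these controls carried Cas9. In its high-fat diet experiment, the controls were Cas9 transgenic mice given a GFP adenovirus. Nothing in the labels ties the livers to separate cages or days, and the spread between replicates is that between these 6 animals.

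The 4 genes share no known pathway. Clec3b encodes tetranectin, a secreted C-type lectin that binds a kringle domain of plasminogen and is made mostly by stromal cells. Sprr1a encodes a small proline-rich protein that transglutaminases crosslink into the cornified envelope of squamous epithelium, and outside the skin it is known as a gene induced by injury and by cytokines acting through gp130. Mmd2, also called PAQR10, encodes a membrane protein of the progestin and adipoQ receptor (PAQR) family that holds Ras proteins at the Golgi. Limch1 encodes an actin-associated protein with calponin homology and LIM domains that binds and activates non-muscle myosin IIA.

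Depth was similar between groups, with 69457633 to 79503092 reads on the listed genes in control livers and 65384969 to 89350181 in Blnc1 LKO livers. The values are scaled read counts, in which the reads on a gene are divided by 1 size factor for each liver, with no correction for gene length. Blnc1 has no row of its own. In RefSeq the name is a synonym of Paqr9, which the study treats as the gene next to Blnc1, and Paqr9 stood at 16950, 18810 and 15156 in the controls against 18268, 15663 and 20027 in the Blnc1 LKO group. These ranges overlapped, and the loss of Blnc1 cannot be checked from this row. All 9 hepatocyte markers examined, albumin among them, were listed in the table.

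Over the 17297 genes tested with limma, 0 genes were called lower in Blnc1 LKO livers at an adjusted p under 0.05 (0% of those tested), and 474 were lower at an unadjusted p under 0.05 (2.74%). edgeR called 1 gene lower (0.00578%) and 453 at an unadjusted p under 0.05 (2.62%), and DESeq2 called 39 (0.226%) and 418 (2.42%). All DESeq2 shares are of the 17294 genes with a p-value there, some of which had no adjusted p. The gene called by edgeR was Clec3b and the 39 of DESeq2 include all 4 members, from which nothing is read since the members were chosen on this contrast. In the other direction limma and edgeR each called 1 gene (0.00578%) and DESeq2 45 (0.26%), and the shares higher at an unadjusted p under 0.05 were 2.94%, 2.98% and 2.47%. The 3 Blnc1 LKO livers all lay below the 3 control livers for 914 genes (5.28%). This held for 4 of 4 members, a count that the choice of the genes fixes. The median log2 difference over all tested genes was −0.0010.

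Clec3b is located on chromosome 9 from 123150946 to 123157432 (GRCm38, + strand) and has 3 exons in GENCODE release M21. It showed the widest separation of the 4 genes as a ratio. Its scaled read counts were 112, 142 and 111 in the controls against 15.5, 14.1 and 26.7 in the Blnc1 LKO group. The lowest control liver lay 4.14-fold above the highest Blnc1 LKO liver. The means were 121 ± 17.5 and 18.8 ± 6.94 (SD, n = 3 each), so the Blnc1 LKO mean was 15.5% of control, with a log2 difference of −2.68 (standard error 0.27) on the log2(scaled count + 1) scale. These values rest on few reads. Control livers had 120, 133 and 104 reads on Clec3b, and Blnc1 LKO livers had 13, 15 and 32. The exact Poisson 95% interval of the 13 reads in Blnc1 LKO replicate 1 ran from 6.92 to 22.2 reads, and that of the 104 reads in control replicate 3 ran from 85.0 to 126 reads. These intervals cover counting error only. Among the 1744 genes whose mean level lay within 2-fold of that of Clec3b, 1 gene had a lower log2 difference, a rank that is given as a description. RefSeq's promoter table used here has no window for Clec3b.

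Sprr1a is located on chromosome 3 from 92483952 to 92485895 (GRCm38, − strand), within the cluster of small proline-rich genes, and has 2 exons. Its scaled read counts were 756, 803 and 737 in the controls against 328, 474 and 336 in the Blnc1 LKO group. The controls lay close together, with an SD of 4.45% of their mean, whereas Blnc1 LKO replicate 2 lay above the other Blnc1 LKO livers. The means were 766 ± 34.1 and 379 ± 81.7 (SD, n = 3 each), a log2 difference of −1.03 (standard error 0.14) that left 49.5% of the control mean. Of 3532 genes at a level within 2-fold of Sprr1a, 5 had a lower log2 difference.

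The promoter window of Sprr1a (RefSeq, GRCm38.p6, chr3:92485832-92486131, − strand, from 250 bases before to 50 bases after the start site) is shown because it carries a pair of AP-1 motifs and a TATA box close to the start, in capitals. AP-1 is the family of Fos and Jun factors, and Sprr genes are known to respond to it.

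Sprr1a: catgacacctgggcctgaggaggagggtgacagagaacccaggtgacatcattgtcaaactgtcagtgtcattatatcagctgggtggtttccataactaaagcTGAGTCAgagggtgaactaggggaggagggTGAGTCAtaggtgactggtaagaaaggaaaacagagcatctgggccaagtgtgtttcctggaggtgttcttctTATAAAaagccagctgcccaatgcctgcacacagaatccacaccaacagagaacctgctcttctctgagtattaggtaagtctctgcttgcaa

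The AP-1 motif searched was TGANTCA, which reads the same on both strands, and its 2 matches start 146 and 116 bases before the start site. At least 2 matches were found in 151 of 32851 promoter windows of the same length (0.460%), and at least 1 in 7.81%. The TATA box (TATAAA on either strand) starts 43 bases before the start site and was found in 13.6% of windows. A match is a run of letters and not a shown binding site.

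Mmd2 is located on chromosome 5 from 142562358 to 142608800 (GRCm38, − strand). Its scaled read counts were 1224, 846 and 1406 in the controls against 524, 536 and 353 in the Blnc1 LKO group. Control replicate 2 was the lowest control liver, and it still lay 1.58-fold above the highest Blnc1 LKO liver. The means were 1159 ± 286 and 471 ± 102 (SD, n = 3 each), a log2 difference of −1.29 (standard error 0.21) and 40.6% of control. Mmd2 had the widest spread among the controls, with an SD of 24.7% of the mean. Of 4142 genes within 2-fold of its level, 2 had a lower log2 difference.

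Limch1 is located on chromosome 5 from 66745827 to 67057158 (GRCm38, + strand), a gene of 311332 bases with 18 annotated transcripts. Its scaled read counts were 339, 393 and 365 in the controls against 217, 230 and 226 in the Blnc1 LKO group. This was the smallest difference of the 4 genes and the one with the most even Blnc1 LKO livers, whose SD was 3.13% of their mean. The means were 366 ± 26.9 and 224 ± 7.02 (SD, n = 3 each), a log2 difference of −0.70 (standard error 0.10) and 61.3% of control. Of 2608 genes within 2-fold of its level, 6 had a lower log2 difference. GENCODE places 7 other genes inside Limch1, of which 4 are on the opposite strand. None of them is listed in the table and their exons share 0 bases with those of Limch1.

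The promoter windows of Mmd2 (RefSeq, GRCm38.p6, chr5:142608703-142609002, − strand) and of the most upstream RefSeq start of Limch1 (chr5:66745639-66745938, + strand) are shown for contrast with that of Sprr1a. Both lack a TATA box and an AP-1 motif in these 300 bases and hold 3 GC boxes (GGGCGG or its reverse complement, in capitals), a motif bound by Sp1-type factors.

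Mmd2: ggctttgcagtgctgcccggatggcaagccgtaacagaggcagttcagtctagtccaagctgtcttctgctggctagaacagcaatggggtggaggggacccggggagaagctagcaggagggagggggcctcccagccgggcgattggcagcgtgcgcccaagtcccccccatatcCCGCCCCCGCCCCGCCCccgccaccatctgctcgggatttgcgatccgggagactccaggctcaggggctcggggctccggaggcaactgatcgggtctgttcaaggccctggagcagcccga
Limch1: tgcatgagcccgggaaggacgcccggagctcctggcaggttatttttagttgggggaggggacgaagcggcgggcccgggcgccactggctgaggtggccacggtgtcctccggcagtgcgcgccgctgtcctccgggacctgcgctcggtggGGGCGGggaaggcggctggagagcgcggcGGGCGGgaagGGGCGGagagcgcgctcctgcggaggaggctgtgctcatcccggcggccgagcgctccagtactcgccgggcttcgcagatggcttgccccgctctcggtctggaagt

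The matches start 73, 67 and 62 bases before the start site in Mmd2, where the last ones overlap, and 97, 68 and 58 bases before it in Limch1. At least 2 GC boxes were found in 19.5% of all windows. GC content was 67.0% for Mmd2 and 72.7% for Limch1, against 48.7% for Sprr1a and a median of 52.7% over all windows. The other starts of Limch1 have windows with no GC box, and that of the most downstream start has a TATA box 76 bases before it. A STAT motif (TTCNNNGAA, on either strand) was found in 8.30% of all windows, and an E-box (CACGTG) in 7.15%. Neither is in any of the 5 windows of Sprr1a, Mmd2 and Limch1. The nuclear receptor hexamer AGGTCA was found in 16.3% of windows, and among the members only in the windows of the 2 internal Limch1 starts.

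**Figure D1:**
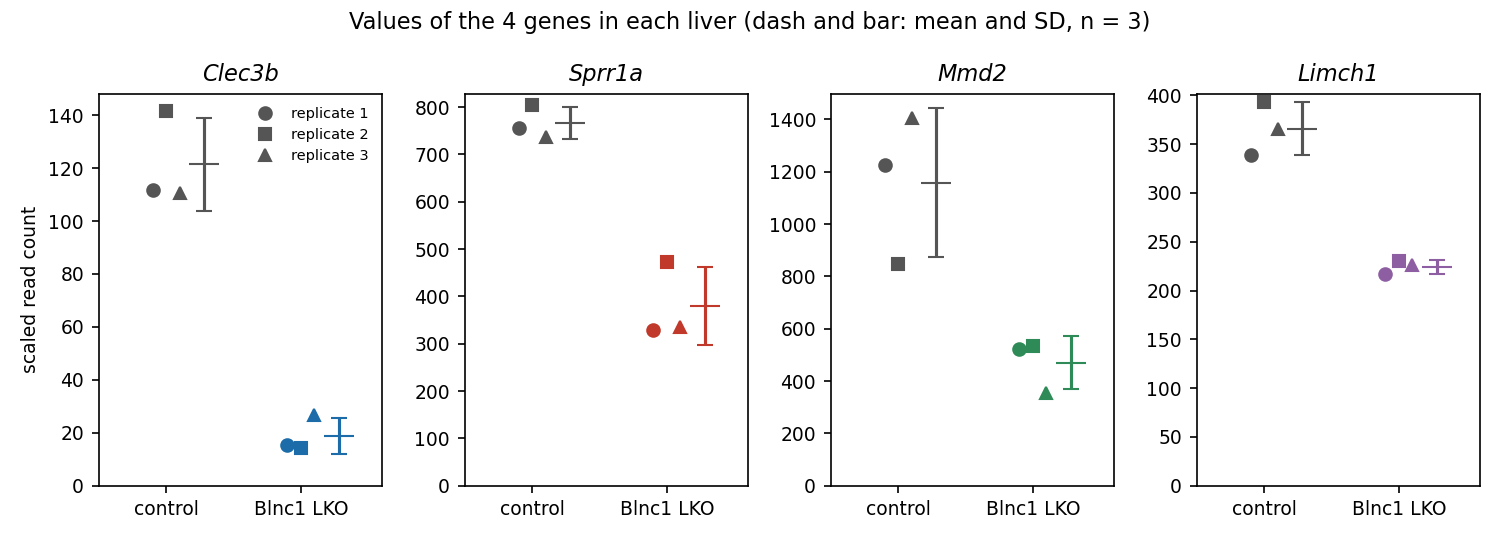
Scaled read counts (vertical axis, from 0) of the 4 genes in each control liver (grey) and Blnc1 LKO liver (coloured); the marker shape gives the replicate number, and the dash and bar the mean and SD of 3 livers. Every Blnc1 LKO liver lies below every control liver, with the widest gap as a ratio for Clec3b (4.14-fold, 26.7 against 111) and the most even Blnc1 LKO livers for Limch1 (217 to 230).

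No single liver held the low or the high values of all members. The lowest Blnc1 LKO liver was replicate 1 for Sprr1a and Limch1, replicate 2 for Clec3b and replicate 3 for Mmd2. The highest Blnc1 LKO liver was replicate 2 for Sprr1a, Mmd2 and Limch1 and replicate 3 for Clec3b. Among control livers, replicate 2 had the highest Clec3b, Sprr1a and Limch1 and the lowest Mmd2, at 117%, 105%, 107% and 73.0% of the control mean of each gene. Blnc1 LKO replicate 3 had 22.0% of the control mean for Clec3b and 30.4% for Mmd2, whereas replicate 2 had 11.6% and 46.2%. After the mean of each group was subtracted, Clec3b and Mmd2 had a Pearson r of −0.893 over the 6 livers, and the other 5 pairs of members ranged from −0.536 to 0.420. These are descriptions over 6 points that share their libraries.

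**Figure D2:**
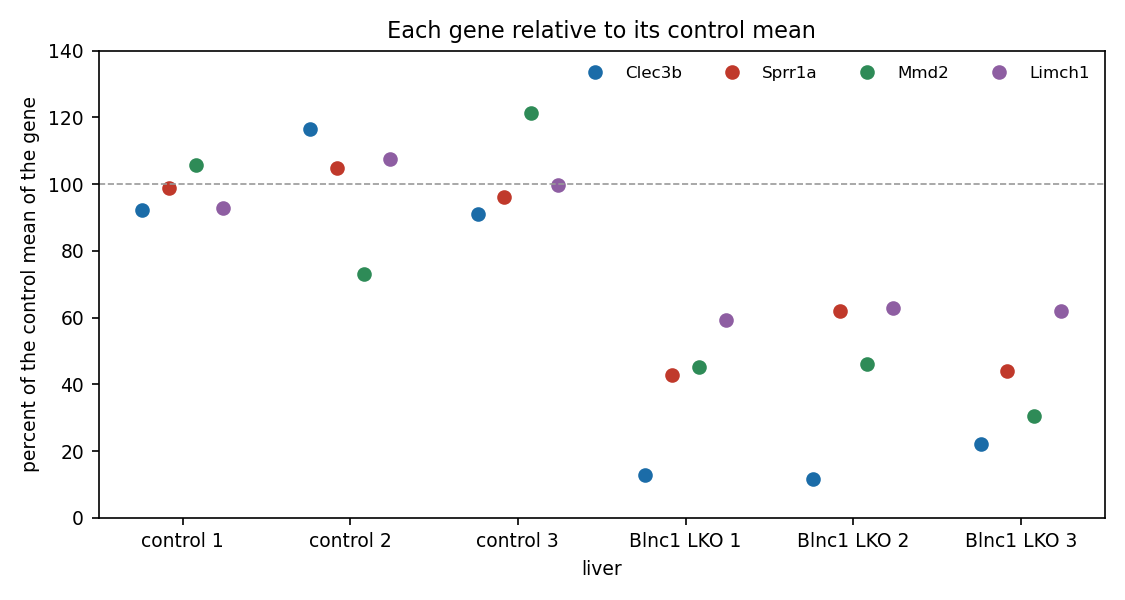
Each gene as a percentage of its own control mean (vertical axis; dashed line, 100%) in each of the 6 livers (horizontal axis). Mmd2 runs opposite to the other genes in control replicate 2 (73.0%), and the Blnc1 LKO livers range from 11.6% for Clec3b in replicate 2 to 62.9% for Limch1 in replicate 2.

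Levels between genes were compared per length, as CPM (reads relative to the total on listed genes) per kilobase of merged exons. In control livers Sprr1a was the highest at 12.8 ± 0.626, followed by Mmd2 at 3.001 ± 0.727, Clec3b at 1.65 ± 0.244 and Limch1 at 0.480 ± 0.0359 (SD, n = 3 each). No neighbours in this order overlapped between livers. In Blnc1 LKO livers the order on the same scale was Sprr1a at 6.35 ± 1.64, Mmd2 at 1.22 ± 0.276, Limch1 at 0.294 ± 0.0215 and Clec3b at 0.253 ± 0.0931, and the ranges of the last pair overlapped. The exons of all annotated transcripts were merged, so a gene with many transcripts, such as Limch1, is placed lower on this scale than a gene with 1 transcript.

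**Figure D3:**
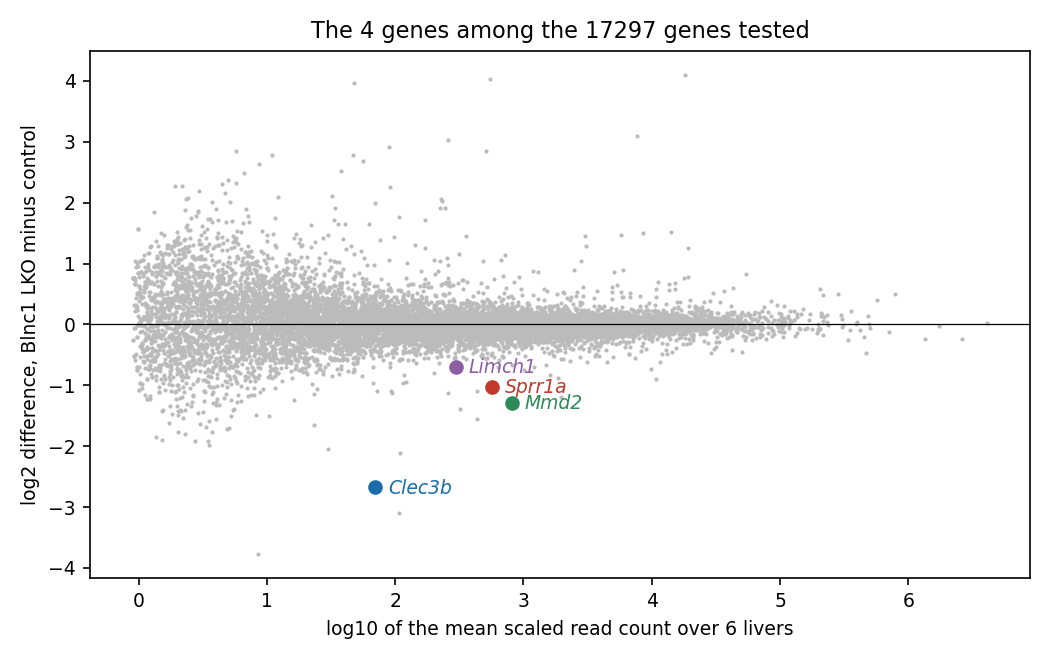
Log2 difference between Blnc1 LKO and control livers (vertical axis) against the log10 mean scaled read count (horizontal axis) for the 17297 genes tested (grey), with the 4 members coloured. The members lie along the lower edge of the cloud at their levels, from −0.70 for Limch1 to −2.68 for Clec3b.

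The families and pathways of the members were examined with 8 lists, which hold 178 other genes, 157 of them tested. limma called 0 of these at an adjusted p under 0.05 (lowest adjusted p = 0.547), edgeR 0 and DESeq2 1. At an unadjusted p under 0.05 there were 19, of which 17 were lower in Blnc1 LKO livers. Over all tested genes, 2.74% were lower and 2.94% higher at this threshold in limma, and 50.4% had a lower mean log2 value. The same shares apply to the counts of each list below. All 3 Blnc1 LKO livers lay below the controls for 20 of the 157 genes and above them for 3, where the shares over all tested genes were 5.28% and 5.35%.

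For Mmd2, none of the other 10 PAQR genes had an unadjusted p under 0.05, 8 had a higher and 2 a lower mean log2 value in Blnc1 LKO livers, and their median log2 difference was 0.08. The closest relative, Mmd, had 15887 ± 436 in control against 17509 ± 1937 in LKO livers (SD, n = 3 each, adjusted p = 0.942, limma). Per length, Mmd stood at 59.7 and Paqr9 at 27.3 CPM per kilobase in control livers, far above the 3.001 of Mmd2. Paqr8, a membrane progestin receptor, had the next smallest p of the family, at 82.8 ± 8.13 and 92.5 ± 1.25 (SD, n = 3 each, adjusted p = 0.973, limma). Of 28 genes of the Ras to ERK pathway, in which the PAQR10 protein acts, 1 was lower at an unadjusted p under 0.05 and 0 were higher, and the median log2 difference was −0.02. That gene was Egr1, an immediate early transcription factor induced by ERK, with a log2 difference of −0.44 (standard error 0.18, adjusted p = 0.859, limma). Dusp6, the phosphatase that feeds back on ERK, had −0.29 (standard error 0.15, adjusted p = 0.899, limma), and both genes overlapped between groups.

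For Clec3b, a chosen list of genes named for a C-type lectin domain was examined, of which 24 others were tested. Their median log2 difference was 0.0020, with 12 lower and 12 higher. Clec14a, an endothelial lectin, had 2561 ± 82.3 in control against 2212 ± 118 in LKO livers (SD, n = 3 each), without overlap (adjusted p = 0.714, limma). Clec11a, a stromal growth factor and a relative of tetranectin, had 341 ± 12.7 and 293 ± 8.18 (SD, n = 3 each), also without overlap (adjusted p = 0.870, limma). Clec4f, a Kupffer cell lectin, was the only gene of this list higher at an unadjusted p under 0.05, at 9164 ± 2269 and 12496 ± 2382 (SD, n = 3 each, adjusted p = 0.857, limma). Clec3a, the closest relative of Clec3b, was not analysed here.

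The plasminogen system, to which tetranectin binds, gave 2 of 19 genes lower at an unadjusted p under 0.05 and 0 higher. Over all tested genes the shares were 2.74% and 2.94%. The median log2 difference of the 19 was −0.07. Plau, the urokinase plasminogen activator, had 969 ± 41.7 and 749 ± 72.6 (SD, n = 3 each), a log2 difference of −0.37 (standard error 0.09, adjusted p = 0.547, limma, and 0.0663, DESeq2). Anxa2, a cell-surface receptor for plasminogen, had 16593 ± 813 and 12172 ± 2112 (SD, n = 3 each), a log2 difference of −0.46 (standard error 0.11, adjusted p = 0.555, limma). Anxa2 was the 1 list gene that DESeq2 called (adjusted p = 0.0297). For both genes the groups did not overlap.

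Sprr1a was the only listed small proline-rich gene with more than a few reads. Of 29 genes of the cornified envelope list, Sprr1a included, 10 were listed. Sprr1b had at most 2 reads in any liver, and Sprr2b had from 0 to 6 reads, so neither gives a usable difference at this depth. None of the 9 other listed envelope genes had an unadjusted p under 0.05, and Ppl, which encodes periplakin, had 2837 ± 418 and 2444 ± 235 (SD, n = 3 each, adjusted p = 0.927, limma). Among 13 AP-1 genes, 11 had a lower and 2 a higher mean log2 value in Blnc1 LKO livers, where 50.4% of all tested genes were lower. The median log2 difference of the 13 was −0.18, and 2 were lower at an unadjusted p under 0.05 (2.74% over all tested genes). These were Jun, at 4495 ± 181 and 3204 ± 862 (SD, n = 3 each, adjusted p = 0.791, limma), and Fosl1, which had only 4 to 8 reads in control livers and 0 to 3 in Blnc1 LKO livers (adjusted p = 0.824, limma). Of 20 genes of IL-6 family signalling, which acts through gp130, 1 was lower and 0 were higher at an unadjusted p under 0.05, with a median of 0.0010. The gene of smallest p was Cebpb, an acute-phase transcription factor, at 4835 ± 286 and 4162 ± 413 (SD, n = 3 each, adjusted p = 0.840, limma), followed by Pim1, a STAT3 target kinase, at 1128 ± 78.0 and 1266 ± 61.3 (SD, n = 3 each, adjusted p = 0.879, limma).

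For Limch1, the list was of non-muscle myosin and stress fibre genes. Of 34 such genes other than Limch1, 30 had a lower mean log2 value in Blnc1 LKO livers, where 50.4% of all tested genes did, and the median log2 difference was −0.12. At an unadjusted p under 0.05, 9 were lower and 1 was higher, where the shares over all tested genes were 2.74% and 2.94%. None passed the adjustment, and the count of 9 did not hold with other choices. It was 3 in edgeR with library size as the only scaling, 4 without control replicate 1, 1 without control replicate 2, 3 without control replicate 3, 2 without Blnc1 LKO replicate 1 or 3, and 17 without Blnc1 LKO replicate 2. Lmo7, the closest relative of Limch1 and another LIM and calponin homology protein, had 2914 ± 123 in control against 2511 ± 51.3 in LKO livers (SD, n = 3 each, log2 difference −0.21, standard error 0.06, adjusted p = 0.614, limma). Limd1, a LIM protein of adherens junctions, was the 1 gene higher at an unadjusted p under 0.05. It had 3535 ± 61.4 and 3956 ± 18.2 (SD, n = 3 each, log2 difference 0.16, standard error 0.05, adjusted p = 0.714, limma). Neither Lmo7 nor Limd1 overlapped between groups.

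**Figure D4:**
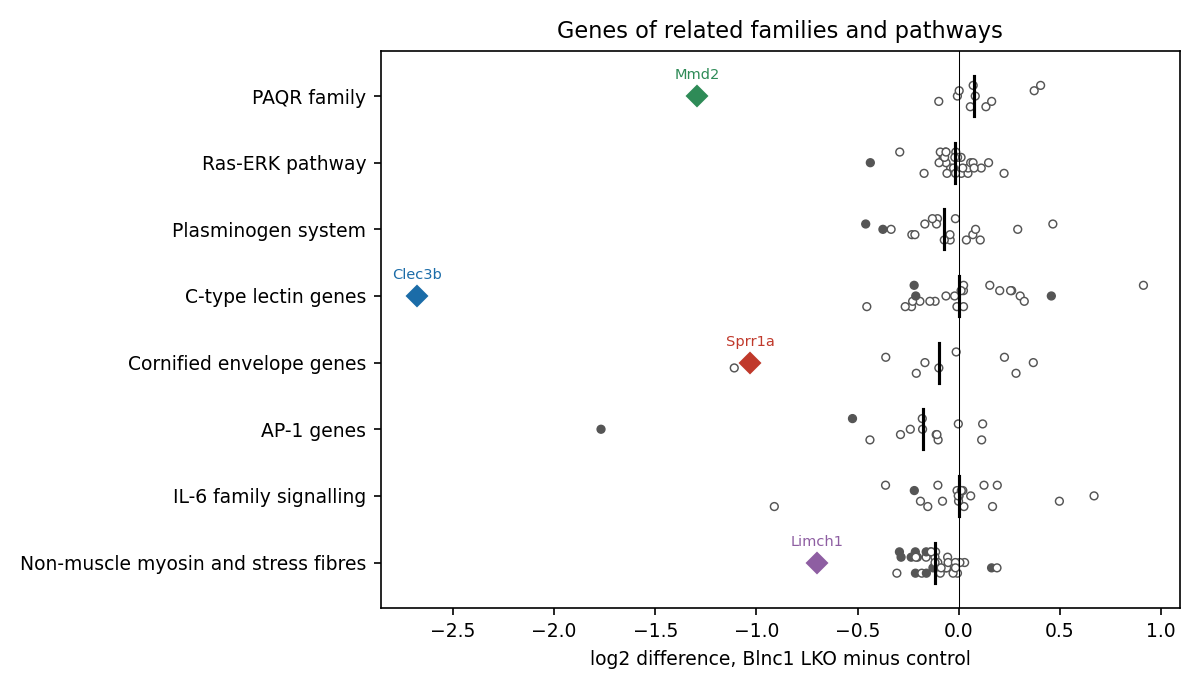
Log2 difference between Blnc1 LKO and control livers (horizontal axis) of each tested gene in the 8 lists (rows); filled points have an unadjusted p under 0.05 in limma, vertical strokes are medians of the genes other than the members, and diamonds are the members. The members lie apart from the medians of their lists, which range from −0.18 for AP-1 genes to 0.08 for the PAQR family, and Sprr2b, at 0 to 6 reads, lies beside Sprr1a.

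Whole liver RNA mixes cell types, and fewer cells of a type cannot be told apart from less RNA per cell. Lists of marker genes were therefore set beside the members, and their part in the members' values was not tested. The summed scaled counts of 10 stellate cell markers ranged from 106434 to 116520 in control and from 90676 to 107410 in Blnc1 LKO livers, and 8 of the 10 had a lower mean log2 value. The collagen genes Col1a1 and Col3a1 and the pericyte gene Rgs5 were lower without overlap, with log2 differences of −0.61, −0.47 and −0.29. DESeq2 called all 3 (adjusted p = 0.00462, 0.0247 and 0.0492), and limma none (adjusted p = 0.547, 0.604 and 0.547). Over all genes, DESeq2 called 0.226% lower. The other stellate cell markers overlapped between groups. Lrat and Reln had higher means, at 0.16 and 0.06, and Des, Pdgfrb, Dcn, Lum and Ngfr ranged from −0.11 for Lum to −0.0009 for Ngfr. Adventitial and portal fibroblasts express Clec3b in many organs. The summed scaled counts of their 9 listed markers ranged from 9942 to 11235 in control and from 8758 to 11652 in Blnc1 LKO livers. Of these 9 genes, 4 had a lower and 5 a higher mean log2 value, and the 2 of smallest p were Fbln2 and Dpt, both at −0.20 (adjusted p = 0.965 and 0.968, limma). The summed levels of 6 platelet markers ranged from 701 to 762 in control and from 601 to 1058 in Blnc1 LKO livers. Of these, 5 had a higher mean log2 value, with a median log2 difference of 0.73 over the list. All 6 overlapped between groups. Ppbp, a platelet chemokine, was at 1.30 (adjusted p = 0.840, limma). It had 104, 55.4 and 59.6 in control against 94.0, 137 and 408 in Blnc1 LKO livers. Pf4 and Itga2b, the markers with the highest means in both groups, were at −0.24 and 0.04. Gp6, Gp1bb and Gp9, at 0.58, 0.88 and 1.03, had values of at most 31.7 in any liver.

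Of 10 squamous epithelium markers, 5 were listed, with a sum of 177 to 192 in control and 172 to 196 in Blnc1 LKO livers, nearly all of it Krt10. Krt5, a basal keratin, had at most 5 reads in any liver, next to 276 to 811 reads of Sprr1a. The summed levels of 8 endothelial markers, to which Clec14a is close in cell type, did not overlap (27044 to 28757 in control, 26184 to 26898 in Blnc1 LKO livers). Those of 6 mesothelial markers did not overlap either (647 to 791 and 801 to 880). Gpm6a, the largest part of the mesothelial sum, overlapped between groups (466 to 656 and 505 to 569). All 6 mesothelial markers had a higher mean log2 value, Wt1 alone without overlap. At an unadjusted p under 0.05, 4 of the 8 endothelial markers were lower, and 0 were higher. Of 8 macrophage markers, 4 were higher at this threshold and 1 was lower, Gpnmb (log2 difference −0.54). The shares over all tested genes were 2.74% lower and 2.94% higher. The higher macrophage markers were Vsig4 (1.04), Timd4 (1.10), Clec4f (0.46) and Adgre1 (0.15). Only Adgre1 did not overlap between groups. Timd4 had 109, 218 and 124 in control against 628, 181 and 257 in Blnc1 LKO livers. None of these endothelial and macrophage markers passed the adjustment in limma, edgeR or DESeq2. The summed levels of hepatocyte, macrophage, cholangiocyte and lymphocyte markers overlapped between groups. Hepatocyte sums were 5986546 to 6619566 in control and 6038607 to 7210712 in Blnc1 LKO livers, and macrophage sums 49420 to 56672 and 54061 to 61044. Cholangiocyte sums were 59856 to 71742 and 47410 to 71586, and lymphocyte sums 1568 to 2155 and 1484 to 2082. Albumin was the largest part of the hepatocyte sum. Of the 9 hepatocyte markers, 3 had a lower and 6 a higher mean log2 value. Among them only Cyp2e1 was higher without overlap, at 487064 ± 25814 and 646896 ± 95935 (SD, n = 3 each). Its log2 difference was 0.40 (adjusted p = 0.851, limma, and 0.0324, DESeq2).

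The genes beside each member were then examined, as the 2 nearest listed genes on either side. The nearest listed neighbour of Clec3b had a higher mean in Blnc1 LKO livers. Cdcp1, which encodes a transmembrane glycoprotein phosphorylated by Src kinases, lies 13392 bases past the end of Clec3b on the opposite strand (GRCm38 chromosome 9, 123170824 to 123216038). Its scaled read counts were 173, 211 and 216 in the controls against 355, 330 and 286 in the Blnc1 LKO group, without overlap. The log2 difference was 0.69 (standard error 0.14, adjusted p = 0.547, limma, 0.543, edgeR, and 0.00577, DESeq2). Exosc7, an RNA exosome subunit 14817 bases before Clec3b, had 2393 ± 88.5 and 2324 ± 89.1 (SD, n = 3 each, adjusted p = 0.978, limma). Zdhhc3, the listed gene before Exosc7, had a log2 difference of −0.04. Tmem158, the listed gene past Cdcp1, had −0.42 (adjusted p = 0.927, limma) and overlapped between groups. Paqr9, the row that RefSeq also calls Blnc1, is on the same chromosome 27.6 megabases before Clec3b.

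At Mmd2, too, the nearest listed gene had a higher mean. Radil, a Rap effector 11260 bases away on the same strand, had 4 to 8 reads in control and 12 to 23 reads in Blnc1 LKO livers, a log2 difference of 1.26 (standard error 0.40, adjusted p = 0.787, limma). On the other side, Wipi2, an autophagy protein, had 5729 ± 97.6 and 6111 ± 280 (SD, n = 3 each, adjusted p = 0.932, limma). Near Sprr1a, the listed genes had few reads, and near Limch1 the log2 differences ranged from −0.25 for Uchl1 to 0.07 for Apbb2. None of the 16 neighbours passed the adjustment in limma or edgeR, and DESeq2 called Cdcp1, while Sprr1b, Sprr2b and Ivl had no adjusted p there.

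**Figure D5:**
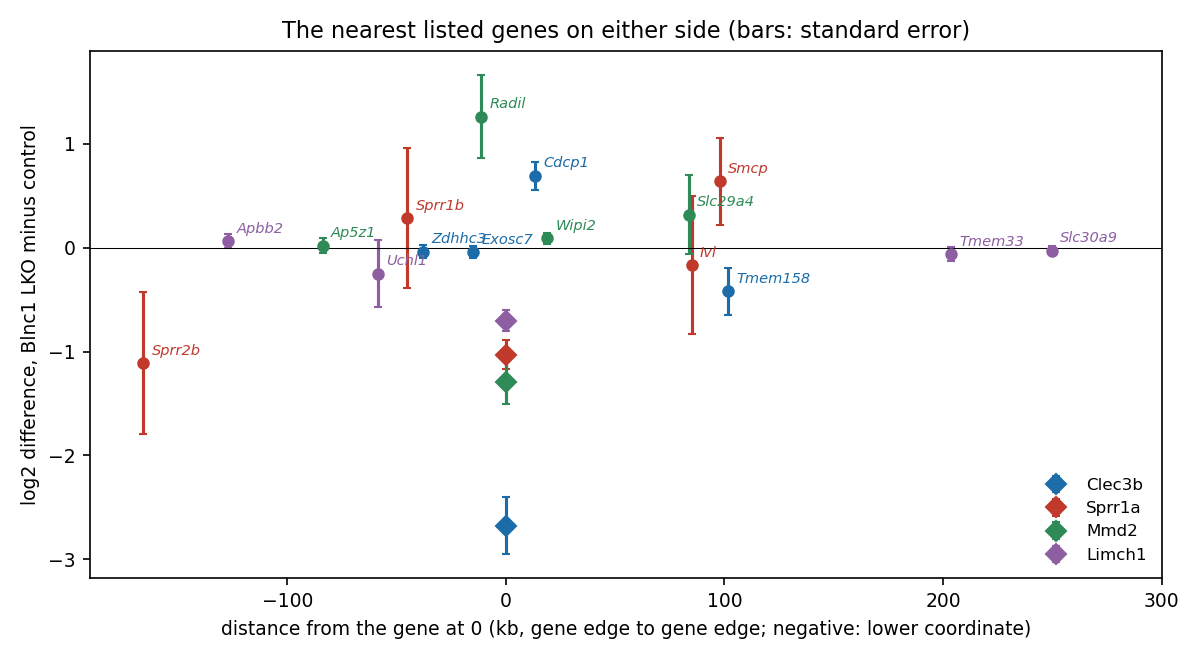
Log2 difference between Blnc1 LKO and control livers (vertical axis; bars, standard error) of the 2 nearest listed genes on either side of each member, against the distance between gene edges in kilobases (horizontal axis; negative, lower coordinate). Diamonds at 0 are the members, all below 0. The nearest listed gene lies above 0 for Clec3b (Cdcp1, 0.69) and Mmd2 (Radil, 1.26, at 4 to 23 reads). It lies below 0 for Limch1 (Uchl1, −0.25), and that of Sprr1a, Sprr1b, had at most 2 reads.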

How the data were processed

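Liver mRNA of 3 control and 3 Blnc1 LKO mice was polyA-selected and sequenced with a kit that does not mark strand. Per the labels and methods, the authors used STAR for alignment to mm10, HTSeq for counting and DESeq2 for testing differences between groups. Versions and the gene annotation are not given in the sources used here. The deposited signal is a read count per gene divided by 1 size factor per liver, as read from the values. Columns named WT and KO were matched to control and Blnc1 LKO livers by number. Dividing each column by its smallest value above 0 gave whole reads (within 0.01) for 100% of values.

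The 4 members, the lists and the tests were chosen with earlier results of these data known. limma (3.58.1, R 4.3.3) was fitted with a trend to log2(value + 1) over the 17297 genes that reached 1 in 3 or more livers, with Benjamini-Hochberg adjustment over all of them (threshold 0.05). The log scale understates changes of low genes. edgeR (4.0.16) and DESeq2 (1.42.0) were run on recovered reads as alternatives, and the fits were tested on simulated data. Named list genes were the closest relatives of the members and the 2 genes of smallest p in each list. For genes of like pattern, genes with a mean of at least 1 CPM (and the members) were ranked by Pearson r, and 1 gene is not reported here. Gene positions came from GENCODE M21 (GRCm38, the build also called mm10), and promoter windows from RefSeq, which matched 3 of the 4 members. RefSeq start sites differ from the GENCODE gene edges, and motif distances are counted from the RefSeq starts. Proteins were not analysed here.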

Additional observations from a re-analysis of the deposited data

How the results depend on the processing

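The log2 difference of each member kept its direction and moved by less than the spread between replicates under every alternative run. With each liver left out in turn it ranged from −2.95 to −2.51 for Clec3b, from −1.20 to −0.94 for Sprr1a, from −1.50 to −1.10 for Mmd2 and from −0.75 to −0.65 for Limch1, and with other pseudocounts, filters, scalings and tools from −2.74 to −2.66, −1.03 to −1.01, −1.31 to −1.29 and −0.71 to −0.70. The number of genes called over all genes, 1 in limma (Hamp, the hepcidin gene, higher in Blnc1 LKO livers), was 2 without a filter on low values, 2 in edgeR with TMM and 84 in DESeq2. It ranged from 0 to 13 with 1 liver left out, and was 13 without Blnc1 LKO replicate 2 and 0 without control replicate 1. List genes called numbered 0 in limma, 1 in DESeq2 (Anxa2), and from 0 to 2 with 1 liver left out, where Anxa2 and Tagln2 were called without Blnc1 LKO replicate 2. The myosin and stress fibre genes lower at an unadjusted p under 0.05 numbered 9, or 3 with library size as the only scaling. They numbered 6 to 10 under the other alternatives with all livers. With 1 liver left out they numbered from 1 to 17, while 28 to 30 of 34 had a lower mean. The causes were not tested.

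Replicate numbers are shared between the groups, but deviations of same-numbered livers correlated at −0.058, −0.019 and −0.107, so the numbers were not taken to pair the mice. With the replicate block, limma called 0 genes over all genes. Depth limits Clec3b most, with 13 to 32 reads in Blnc1 LKO livers.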

Other observations

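The genes whose values ran most like those of a member were listed by Pearson r of log2(scaled count + 1) over the 6 livers, among 12864 genes, as a description with no test, since the points share their libraries and the group difference. For Clec3b they were Rnps1, an RNA-binding splicing factor (r = 0.999), Dtwd2 (r = 0.988) and Aplp2, a relative of the amyloid precursor protein (r = 0.983). Their differences were far smaller than that of Clec3b, as Rnps1 had 891 ± 7.13 in control against 810 ± 11.8 in LKO livers (SD, n = 3 each). For Sprr1a they were Adam17, a sheddase of membrane proteins (r = 0.997), Tmem165 and Ctnna1, the adherens junction protein alpha-catenin (both r = 0.990). For Mmd2 they were Gpt2, the mitochondrial alanine aminotransferase (r = 0.990), Acnat2, an acyl-CoA N-acyltransferase (r = 0.987), and Trove2 (r = 0.987). Acnat2 had 2062 ± 346 in control against 1158 ± 175 in LKO livers (SD, n = 3 each). For Limch1 they were Grasp (r = 0.992), 2210016F16Rik (r = 0.990) and Cd28, the T cell costimulatory receptor (r = 0.986).

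After the mean of each group was subtracted, the genes nearest to each member were Elovl6, a fatty acid elongase, and Dact2 for Clec3b (r from 0.994 to 0.999), and Anxa5, Pld2 and Pdlim7 for Sprr1a (r from 0.996 to 0.998). For Mmd2 they were H2-T24, Hamp2 and Rdh5 (r from 0.992 to 0.995), and for Limch1 Hyal3, Pogz and Hoxb2 (r from 0.987 to 0.992).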
